A study of Mus musculus with 384 samples.

Results

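The Notch genes described here are 8 of the 46517 genes in a table of TPM, an abundance scaled to transcript length and to a fixed total in each cell, for single mouse hair follicle cells. They were chosen by symbol, as the rows whose identifier ends in the gene's name: the receptors Notch1, Notch2 and Notch3, the ligands Jag1, Jag2 and Dll1, and the target genes Hes1 and Hey1. All 8 were found, each in 1 row. The cells came from back skin at postnatal day 70. They were sorted singly and their RNA was amplified by Smart-seq2, a full-length protocol without molecular identifiers. The mice carried floxed alleles of nuclear factor I (NFI) genes, which encode transcription factors.

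All mice carried Sox9-CreER, the reporter R26-YFPfl/fl and NFIXfl/fl, so that both Nfix alleles were floxed throughout. The dKO group was NFIBfl/fl in addition, with both Nfib alleles floxed. The cKO group was NFIBfl/+, with only 1 Nfib allele floxed; the series text calls this group NFIB-cKO. The comparison therefore asks what the second floxed Nfib allele adds where Nfix is floxed in both groups. CreER is a recombinase that acts after tamoxifen. Here it is driven by Sox9 regulatory sequence, which is active in follicle stem cells, and a YFP reporter marks cells in which it has acted. All cells were sorted as DAPI-negative, integrin α6-positive and YFP-positive, and as either Sca-1-negative or Sca-1-positive. Sca-1 is the Ly6a product, a surface protein of epidermis and upper follicle. Of 384 cells, 378 had at least 1000 genes at 1 TPM or more and were kept. The Sca-1-negative gate held 154 dKO cells (plate 1 with 93, plate 2 with 61) and 183 cKO cells (plate 1 with 71, plate 2 with 47, plate 3 with 65). The Sca-1-positive gate held 19 cells of dKO plate 2 and 22 cells of cKO plate 3. No label says which animal a cell came from. How many animals each genotype holds is therefore not known, plates are shown apart and no test was run.

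Notch receptors sit in the cell membrane and bind Jagged and Delta ligands on neighbouring cells. Binding leads to cleavage of the receptor by ADAM proteases and then by γ-secretase, and the freed intracellular domain enters the nucleus, joins the DNA-binding protein RBPJ and Mastermind coactivators, and switches on genes of the Hes and Hey families. In mouse skin the pathway is known for its part in the differentiation of suprabasal keratinocytes and in keeping the hair follicle intact.

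The plates went against their labels in RNA of the sex chromosomes. All cells are labelled male, yet dKO plate 1 and cKO plates 1 and 2 held Xist RNA (44.5, 51.4 and 59.8 TPM) and almost no RNA of 4 Y-linked genes, while dKO plate 2 and cKO plate 3 held Y-linked RNA (34.1 and 41.7 TPM) and almost no Xist. Plates of each genotype thus differ in sex, so their spread is not technical alone. Comparisons of genotype are therefore also given within the Xist plates and within the Y plates. Whole-gene Nfib RNA averaged 58.4 and 90.4 TPM on the dKO plates and 67.1 to 80.4 TPM on the cKO plates of the Sca-1-negative gate, and Nfix RNA 29.6 and 32.3 TPM on the dKO plates and 43.7 to 48.0 TPM on the cKO plates. Nfib RNA on dKO plate 2 was thus above that of every cKO plate. These values do not separate floxed from other exons, so recombination was not checked, and the genotypes are those of the labels. Ly6a averaged 125 TPM (dKO) and 68.4 TPM (cKO) in the Sca-1-positive gate and 19.7 to 47.6 TPM on the plates of the Sca-1-negative gate. Cells were called positive for a gene when it reached 10 TPM. By that rule 91 of the 337 Sca-1-negative cells were positive for Cd34, a bulge stem cell marker of the mouse follicle, 65 were positive for Krt79, a keratin of the upper follicle, 2 of them were positive for both, and 183 were positive for neither. The 10 bulge markers summed to 1810 TPM in the cells positive for Cd34 alone, against 348 TPM in those positive for Krt79 alone and 497 TPM in those with neither. The 8 upper follicle markers summed to 43.3, 1010 and 130 TPM in the same order. The classes were cut by Cd34 and Krt79 themselves, so these sums describe the classes and do not test them. The median number of genes detected was 4781, 5334 and 5031 in that order, and depth in reads is unknown because TPM does not keep it. The 8 endothelial and mural markers summed to 14.2 to 20.8 TPM on the plates, with 1 of 8 measured at 5 TPM or more, Cdh5, Kdr and Tek at 0 on all plates, and 32.6, 5.78 and 12.2 TPM in the classes in that order.

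NFI proteins bind the core TTGGC, and the start regions of Notch3, Dll1 and Jag2 are shown because these members differ between cell classes or genotypes below; Hes1 and Hey1 were not matched in the table used. Each window runs from 250 bases before to 50 bases after the RefSeq start (GRCm38.p6), 5′ to 3′ along the gene, with every TTGGC on either strand in capitals; in these 3 windows all lie on the gene's own strand.
Notch3: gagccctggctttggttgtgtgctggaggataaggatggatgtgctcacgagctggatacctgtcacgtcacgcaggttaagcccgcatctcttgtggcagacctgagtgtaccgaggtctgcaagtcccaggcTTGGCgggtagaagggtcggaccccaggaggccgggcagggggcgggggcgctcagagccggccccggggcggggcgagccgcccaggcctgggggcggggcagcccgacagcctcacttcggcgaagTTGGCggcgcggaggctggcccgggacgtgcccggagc
Dll1: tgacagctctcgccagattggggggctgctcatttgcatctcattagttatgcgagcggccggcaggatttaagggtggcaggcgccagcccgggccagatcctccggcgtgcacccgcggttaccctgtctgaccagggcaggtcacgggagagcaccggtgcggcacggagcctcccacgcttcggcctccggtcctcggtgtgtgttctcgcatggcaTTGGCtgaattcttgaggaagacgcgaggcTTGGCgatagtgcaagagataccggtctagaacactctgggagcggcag
Jag2: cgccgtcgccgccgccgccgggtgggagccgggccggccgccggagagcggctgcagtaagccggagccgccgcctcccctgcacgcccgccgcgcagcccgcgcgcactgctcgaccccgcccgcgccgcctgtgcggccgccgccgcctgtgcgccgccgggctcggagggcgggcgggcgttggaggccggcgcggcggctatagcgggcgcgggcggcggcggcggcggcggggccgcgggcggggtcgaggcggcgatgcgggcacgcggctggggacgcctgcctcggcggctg
The Notch3 window (chr17:32166841-32167140, minus strand) held 2 cores, at 116 bases before and 12 bases after the start. The Dll1 window (chr17:15375774-15376073, minus strand) also held 2, at 29 bases before and 1 base after the start, while a second Dll1 start had none. The Jag2 window (chr12:112929446-112929745, minus strand) had none, as had the windows of Notch1 and Jag1, and the Notch2 window had 1. Among 32851 promoter windows of the same length 46.7% held at least 1 TTGGC and 14.4% at least 2. The RBPJ motif GTGGGAA, searched on both strands, lay in none of the 7 windows of the 6 members in the table and in 6.38% of all windows. A match describes letters only.

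All 3 receptors and all 3 ligands were detected in the Sca-1-negative gate, at levels that differed by more than a factor of 10 between Notch1 and Notch3. As the mean of 5 plates, Notch1 stood at 55.8 TPM, Jag2 at 27.8, Dll1 at 20.4, Notch2 at 19.8, Hes1 at 18.7, Jag1 at 13.3, Notch3 at 4.61 and Hey1 at 0.488 TPM. TPM is per transcript length, so these levels can be compared between genes. Notch1 stood above every other member on all 5 plates. The plate ranges of Jag2 (20.3 to 37.8 TPM), Dll1 (15.7 to 33.4), Notch2 (14.0 to 22.9), Hes1 (4.03 to 31.7) and Jag1 (10.1 to 14.9) each overlapped that of the next in this order. Compared within plates, Jag2 stood above Dll1, Hes1 and Jag1 on all 5 plates, and Dll1 and Notch2 each above Jag1. The other pairs of these genes changed order between plates. Notch3 (1.10 to 8.53 TPM) did not reach Jag1, and Hey1 stayed at or below 1.39 TPM.

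The share of positive cells gave another order for Dll1 and Hes1. Of 337 Sca-1-negative cells, 84.9% were positive for Notch1, 67.4% for Jag2, 52.5% for Notch2, 45.7% for Jag1, 31.8% for Dll1, 29.7% for Hes1 and 15.4% for Notch3. Hey1 was positive in 3 cells (0.89%). Dll1 and Hes1 thus had plate means like that of Notch2 but in fewer cells: the median positive cell held 46.1 TPM of Dll1 and 39.4 TPM of Hes1, against 27.0 TPM of Notch2, among cells positive for neither Cd34 nor Krt79. The plot of plate means shows the 8 members side by side.

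**Figure D1:**
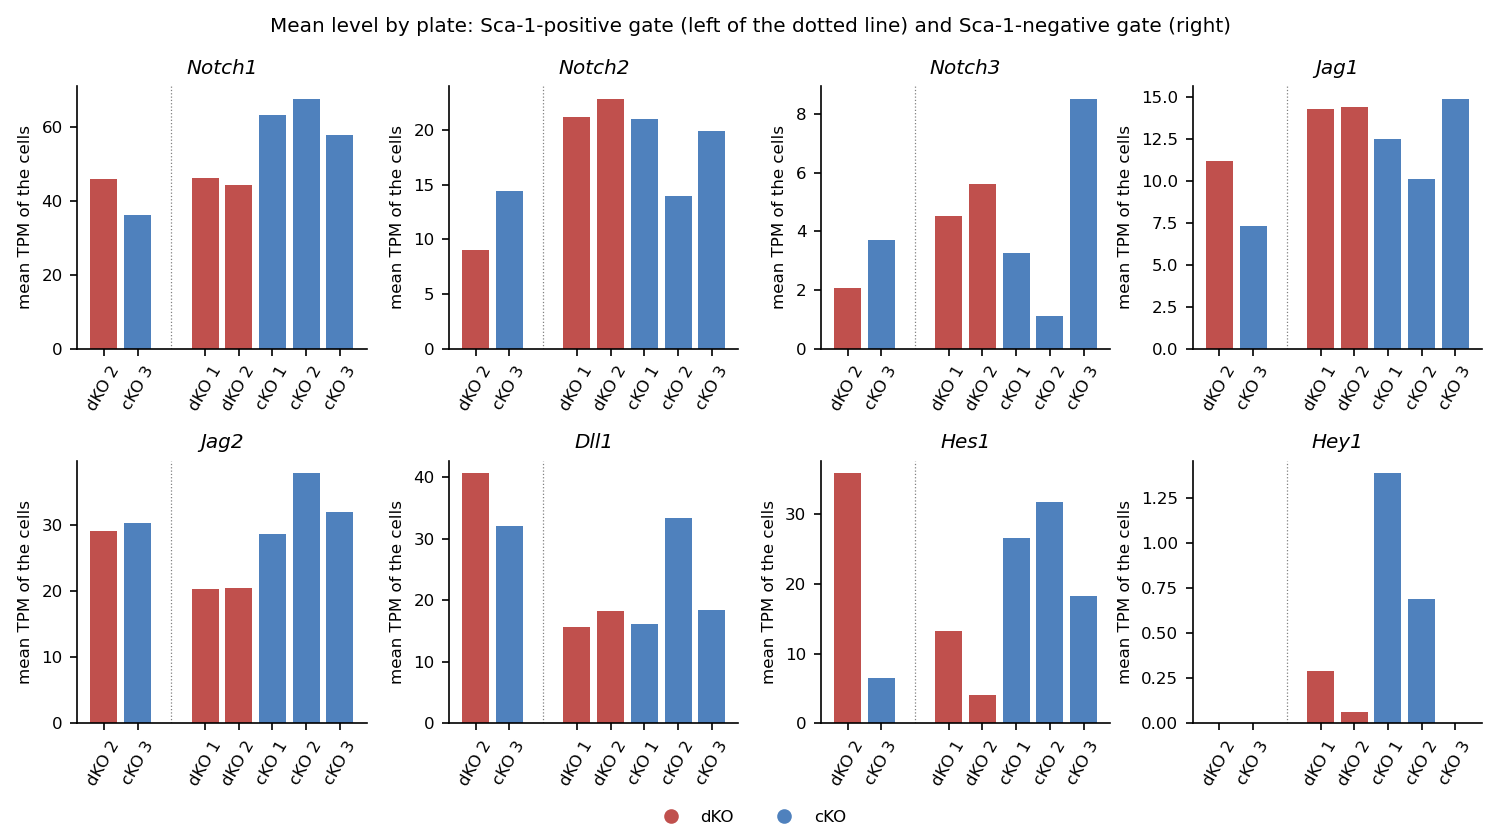
Mean TPM over the cells of each plate (bars, linear axis from 0, a scale of its own for each gene) for the 8 members, with the Sca-1-positive gate left of the dotted line, the Sca-1-negative gate right of it, dKO in red and cKO in blue. Jag2 and Notch1 stand lower on both dKO plates than on all 3 cKO plates of the Sca-1-negative gate, and Hes1 spreads from 4.03 to 31.7 TPM there.

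Among the receptors, Notch1 was lower in Cd34-positive than in Cd34-negative cells on all 5 plates, and Notch3 was higher in Krt79-positive cells on all 5 plates. Notch1 averaged 33.4 and 17.9 TPM in Cd34-positive cells of dKO plates 1 and 2, and 32.8, 46.3 and 43.3 TPM in those of cKO plates 1 to 3. Its Cd34-negative cells averaged 50.4 and 53.6 TPM on the dKO plates and 77.7, 75.7 and 62.4 TPM on the cKO plates. The 2 sets of plate values did not overlap: over plates Notch1 was 34.7 TPM in Cd34-positive and 64.0 TPM in Cd34-negative cells, a log2 ratio of -0.86 (all ratios are of mean TPM plus a pseudocount of 1, which understates those of low genes).

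That difference passed the size rule used for Cd34 and Krt79, a ratio over plates of at least 1.5 and the same direction on each of the 5 plates, for the mean of TPM as well as the mean of log2(TPM + 1), among genes averaging at least 5 TPM. Of the 8 members 6 were measured by that filter, since Notch3 and Hey1 lay below it. Notch1, Dll1 and Hes1 passed as lower in Cd34-positive cells and no member passed as higher. Of 7059 genes measured, 8.17% were lower and 5.94% higher by the same rule. Notch2 averaged 12.9 TPM in Cd34-positive and 22.3 TPM in Cd34-negative cells, but the direction was the opposite on cKO plate 2 (18 and 12.5 TPM), so it did not pass. Without that plate Notch2 (log2 ratio -1.03) and Notch3 passed as well. Notch3 could pass because its mean over the remaining plates reached the filter of 5 TPM. The share of all genes past this looser rule is not given. With Cd34 called positive at 1 TPM, Notch1 and Dll1 no longer passed and Hes1 did.

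Notch3, the receptor with the narrowest distribution, was positive in 2 of 89 cells with Cd34 alone (2.25%, exact Clopper-Pearson 95% interval 0.273% to 7.88%), in 33 of 63 cells with Krt79 alone (52.4%, 39.4% to 65.1%) and in 17 of 183 cells with neither (9.29%, 5.51% to 14.5%). Intervals cover counting error only. Its Krt79-positive cells averaged 19.8 and 19.6 TPM on dKO plates 1 and 2 and 8.0, 3.52 and 21.6 TPM on cKO plates 1 to 3. In the Krt79-negative cells it averaged 2.04 and 0.227 TPM on the dKO plates and 2.47, 0.749 and 3.11 TPM on the cKO plates.

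Every plate was therefore higher in its Krt79-positive cells, with 14.5 TPM over plates against 1.72 TPM (log2 ratio 2.51), and 99.8% of measured genes had a lower ratio. Notch3 itself lies below the filter, so this rank sets it against genes of higher mean level only. The value on cKO plate 2 rests on 6 Krt79-positive cells. On cKO plate 1, 7 of the 10 Notch3-positive cells were Krt79-negative. Notch2 also passed the rule as higher in Krt79-positive cells, at 29.3 TPM against 17.2 TPM (log2 ratio 0.74), with positive cells at 31.0 and 36.2 TPM on the dKO plates and 31.8, 18 and 29.6 TPM on the cKO plates. Krt79-negative cells held 19.6 and 17.8 TPM of Notch2 on the dKO plates and 19.2, 13.4 and 15.9 TPM on the cKO plates, so that only the positive cells of cKO plate 2 lay among the negative values. Notch1 averaged 74.7 TPM in Krt79-positive and 50.2 TPM in Krt79-negative cells and missed the rule, since cKO plate 2 went the other way (55.9 and 69.3 TPM). Notch2 and Hes1 were the only measured members past the rule as higher in Krt79-positive cells, and none passed as lower. Of 7059 genes measured, 3.05% passed as higher and 4.86% as lower. Among cells with 4000 to 6000 genes detected, a range that brings the classes closer in genes per cell, neither passed (log2 ratios of 0.54 for Notch2 and 0.37 for Hes1) and Jag2 passed as lower. Without cKO plate 2, Notch1 (0.79), Notch2 (0.79), Notch3 and Hes1 (1.0) passed as higher and Dll1 (-0.91) as lower. Notch3 could pass there because its mean over the remaining plates reached the filter of 5 TPM. Fewer plates make the rule looser, and the share of all genes past it without that plate is not given.

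Among the ligands, Dll1 was low in Cd34-positive cells, Jag2 was low in Krt79-positive cells of the dKO plates, and Jag1 hardly differed between classes. Dll1 averaged 5.78 and 7.84 TPM in Cd34-positive cells of the dKO plates and 2.97, 5.54 and 4.14 TPM in those of the cKO plates. Its Cd34-negative cells averaged 18.9 and 21.9 TPM on the dKO plates and 22.3, 44.1 and 23.1 TPM on the cKO plates. No plate value overlapped, and the log2 ratio over plates was -2.11 (5.25 and 26.1 TPM). Only 8 of 89 cells with Cd34 alone were Dll1-positive (8.99%, 3.96% to 16.9%), against 16 of 63 with Krt79 alone (25.4%, 15.3% to 37.9%) and 83 of 183 with neither (45.4%, 38.0% to 52.9%).

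Jag1 stood at 13.4 TPM in Cd34-positive and 13.2 TPM in Cd34-negative cells, and at 14.3 TPM in Krt79-positive and 13.0 TPM in Krt79-negative cells, with 42.7% to 49.2% positive cells in each of the 3 classes. Jag2 averaged 24.3 TPM in Cd34-positive and 29.4 TPM in Cd34-negative cells, with both directions among the plates. In Krt79-positive cells Jag2 averaged 5.11 and 9.85 TPM on dKO plates 1 and 2 and 27.9, 31.3 and 25.4 TPM on cKO plates 1 to 3. The Krt79-negative cells held 22.8 and 24.5 TPM on the dKO plates and 28.7, 38.7 and 34.7 TPM on the cKO plates. Jag2 was thus lower in Krt79-positive cells on every plate in mean TPM, by a log2 ratio of -0.56 over plates, short of the rule.

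Hes1, a transcriptional repressor and Notch target, was low in Cd34-positive cells on every plate. It averaged 4.65 and 0.571 TPM in Cd34-positive cells of the dKO plates and 2.23, 5.8 and 0.116 TPM in those of the cKO plates. Its Cd34-negative cells averaged 15.9 and 5.26 TPM on the dKO plates and 38.1, 41.6 and 24.2 TPM on the cKO plates. Each plate was lower in its own Cd34-positive cells, although dKO plate 2 had less Hes1 RNA in its Cd34-negative cells than cKO plate 2 in its Cd34-positive cells. The log2 ratio was -2.82 (2.67 and 25.0 TPM). Immediate early genes, which cell dissociation is known to raise, were also lower in Cd34-positive cells over all plates: 18 of them summed to 968 TPM in cells with Cd34 alone, 2050 TPM in those with Krt79 alone and 2870 TPM in those with neither. On dKO plates 1 and 2 their sum was 2080 and 566 TPM in cells with Cd34 alone, against 2420 and 855 TPM in those with neither. On cKO plates 1 to 3 it was 852, 652 and 150 TPM, against 4150, 5180 and 1950 TPM. Their part in the Hes1 differences was not tested.

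In Krt79-positive cells Hes1 averaged 22.4 and 7.13 TPM on the dKO plates and 27.4, 32.3 and 43.9 TPM on the cKO plates. The Krt79-negative cells averaged 11.6 and 2.83 TPM on the dKO plates and 26.4, 31.6 and 7.64 TPM on the cKO plates. On cKO plate 3, 1 of the Krt79-positive cells held 332.43 TPM. All 5 plates were higher in Krt79-positive cells, but cKO plates 1 and 2 by a log2 ratio of only 0.05 and 0.03. Over plates it was 0.70 (26.6 and 16.0 TPM), while the Xist plates alone gave 0.23 and the Y plates alone 2.09, and the value was 0.29 without cKO plate 3. Among Cd34-negative cells alone it was 0.22 and did not pass; that comparison leaves out the Cd34-positive cells, which have little Hes1. Hey1 was positive in 2 cells with Cd34 alone, in 1 cell with neither and in 0 of 63 cells with Krt79 alone, which allows a share of up to 4.76%. The plot by class shows these levels for each plate.

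**Figure D2:**
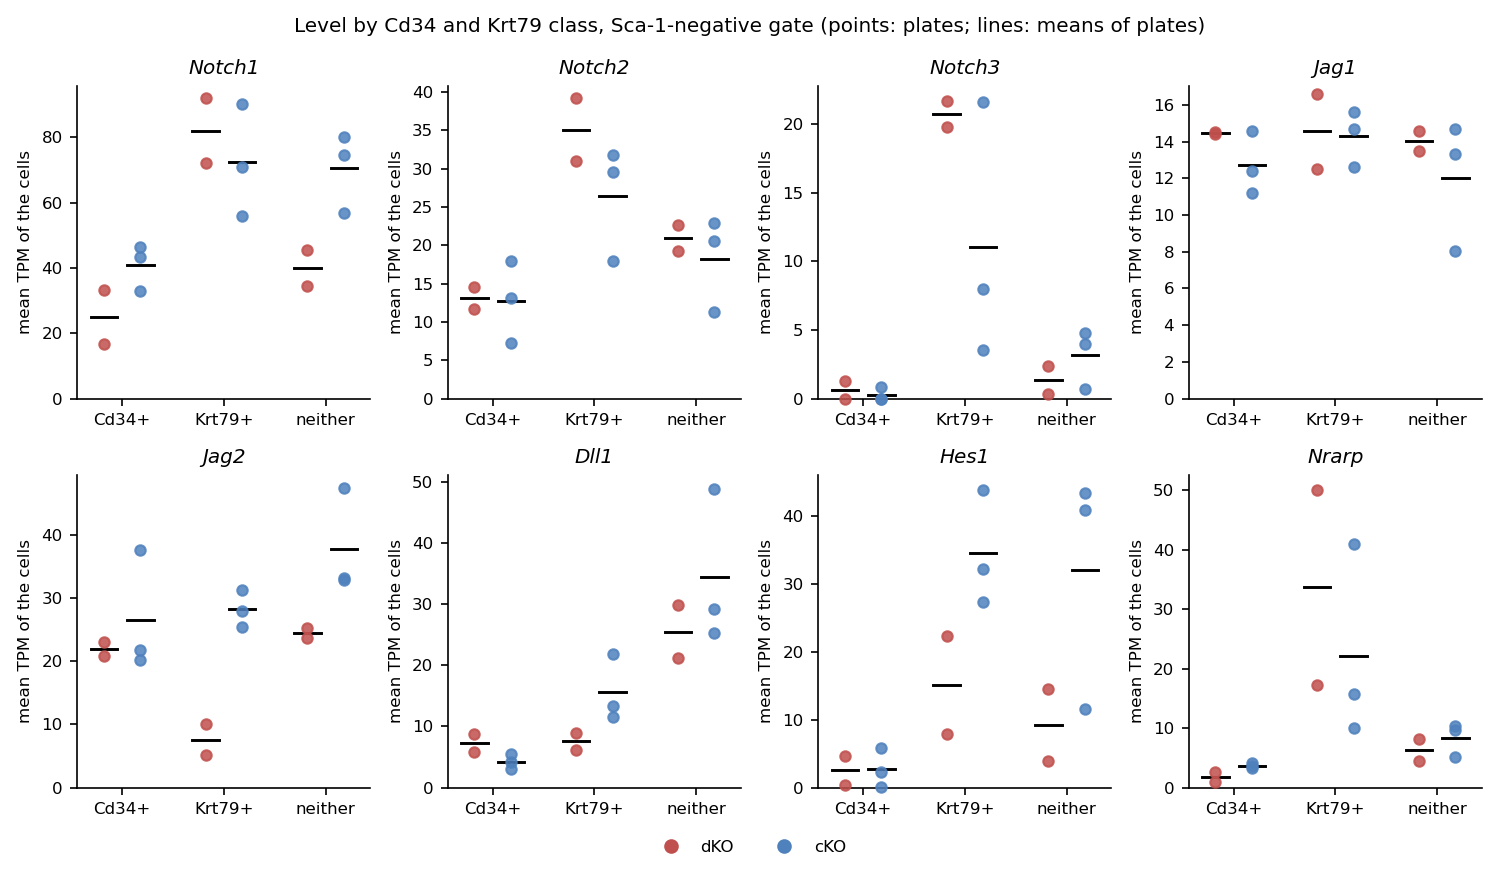
Mean TPM over the cells of each plate (points) and the mean of plates (black lines) in cells positive for Cd34 alone, for Krt79 alone or for neither, Sca-1-negative gate, dKO in red and cKO in blue, for 7 members and the Notch target Nrarp. Dll1, Hes1 and Nrarp stand low in the Cd34-positive cells of all plates, Notch3 stands highest in Krt79-positive cells, and Jag2 separates the genotypes there.

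Between moderate and high Krt79 the shares of Notch3-, Jag2- and Dll1-positive cells differed, and those of Jag1 hardly did. Krt79 was split at 50 TPM in place of 10 TPM, and the 4 ranges of Krt79 were chosen after the data were seen. Of the Cd34-negative cells, 161 had Krt79 below 1 TPM, 22 between 1 and 10, 25 between 10 and 50 and 38 at 50 TPM or more. Notch3-positive cells made up 8.07% (4.37% to 13.4%), 18.2% (5.19% to 40.3%), 12% (2.55% to 31.2%) and 78.9% (62.7% to 90.4%) of these ranges. Jag2-positive cells made up 77.0% (69.7% to 83.3%), 68.2% (45.1% to 86.1%), 68.0% (46.5% to 85.1%) and 21.1% (9.55% to 37.3%), and Dll1-positive cells 45.3%, 45.5%, 48.0% and 10.5% (2.94% to 24.8%). At 50 TPM or more, dKO plates 1 and 2 gave 10 of these cells each. Plates 1 to 3 of cKO gave 4, 1 and 13 cells. Plates and genotypes are pooled, so the intervals cover counting error over cells and not the spread between plates. Between 10 and 50 TPM, 3 of 8 dKO cells (37.5%, 8.52% to 75.5%) and 0 of 17 cKO cells (0% to 19.5%) were Notch3-positive. At 50 TPM or more the shares of Notch3-positive cells were 80.0% in dKO and 77.8% in cKO. On cKO plate 1, 3 of the 4 cells at 50 TPM or more were Jag2-positive.

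The same step appeared for Nrarp, a Notch target that encodes a feedback inhibitor of the pathway, with 18%, 40.9%, 20% and 71.1% positive cells, whereas Jag1 kept 44.7% to 52.0% throughout. In the ranges of 10 to 50 TPM and of 50 TPM or more, Notch2-positive cells made up 56.0% (34.9% to 75.6%) and 76.3% (59.8% to 88.6%). Hes1-positive cells made up 36.0% (18% to 57.5%) and 57.9% (40.8% to 73.7%). Notch1 was positive in 38 of 38 cells at 50 TPM or more of Krt79. The median number of genes detected was 5025 below 1 TPM of Krt79 and 5491.5 at 50 TPM or more.

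Split at 50 TPM, all 5 plates moved one way for Jag2 and for Dll1. Jag2 averaged 3.56 and 7.61 TPM in cells at 50 TPM or more on the dKO plates and 20, 0 and 11.7 TPM on the cKO plates, against 22.3 and 23.2 TPM in the remaining cells of the dKO plates and 29.1, 38.6 and 37.0 TPM in those of the cKO plates. The log2 ratio of Jag2 was -1.70 and that of Dll1 -2.13 (4.34 and 22.3 TPM), while Notch1 had 0.74 (86.2 and 51.3 TPM), Hes1 1.48 (46.4 and 16.0 TPM) and Notch3 3.07 (23.6 and 1.92 TPM). Notch1 and Hes1 passed the rule as higher, Jag2 and Dll1 as lower, and Notch3 was below the filter; of 7059 genes measured, 3.06% were higher and 7.08% lower. The value of cKO plate 2 is 1 cell, and those of dKO plates 1 and 2 and cKO plates 1 and 3 are 10, 11, 4 and 13 cells.

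**Figure D3:**
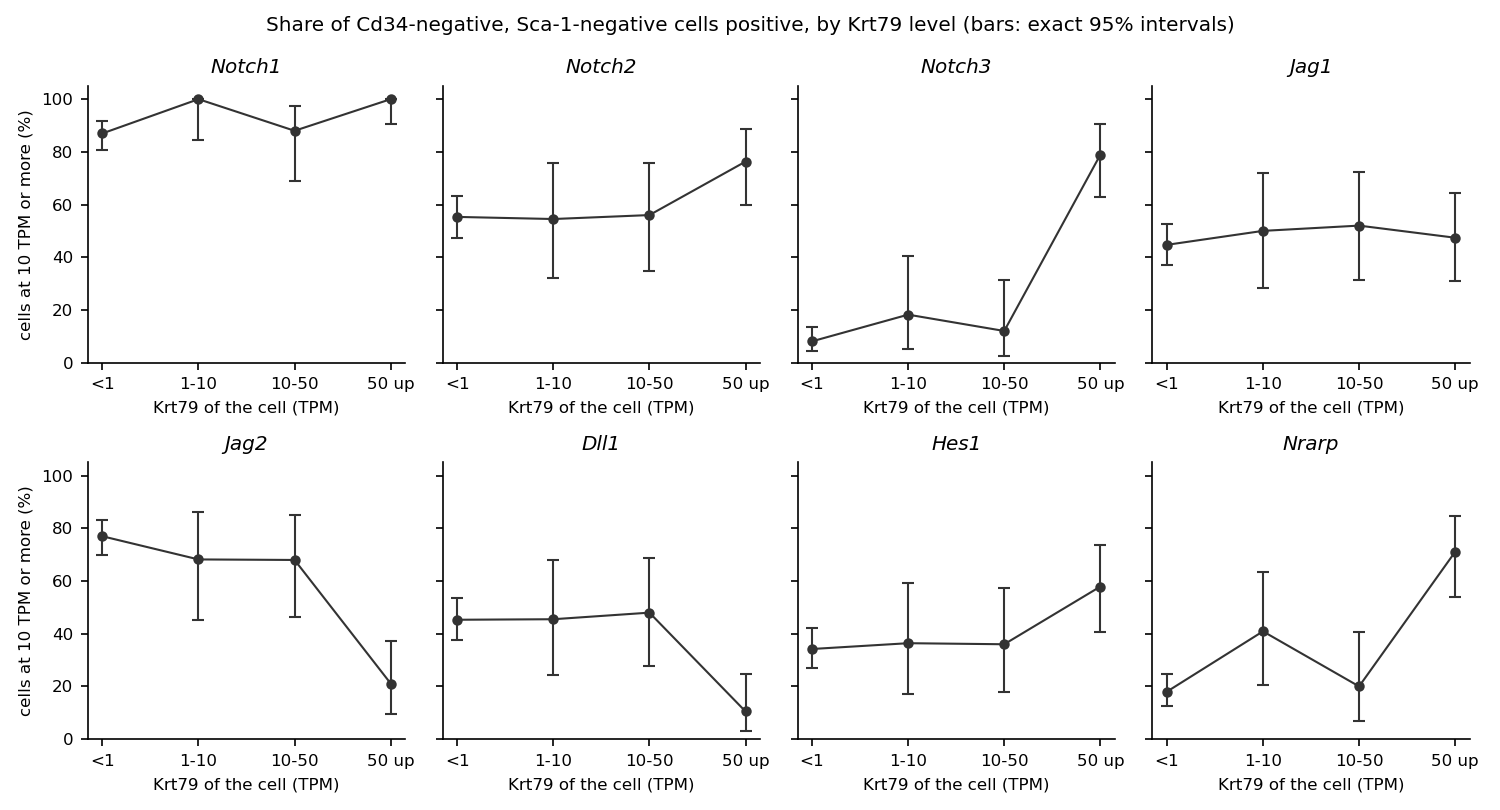
Share of Cd34-negative cells of the Sca-1-negative gate at 10 TPM or more of each gene (points, vertical axis in percent) in 4 ranges of the cell's own Krt79 level (horizontal axis, TPM), all plates together; bars are exact 95% binomial intervals. From the range of 10 to 50 TPM to that of 50 TPM or more the share goes up for Notch3 (12% and 78.9%) and Nrarp and goes down for Jag2 (68.0% and 21.1%) and Dll1.

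In single cells Notch3 shared fewer cells with Jag2 and with Dll1 than the product of their shares gives, and with Jag1 about as many. In 268 of 337 Sca-1-negative cells (79.5%) at least 1 receptor and at least 1 ligand of the members were positive in the same cell. Singly, 92.0% of these cells were positive for a receptor and 85.5% for a ligand, so most hold both from these shares alone. Notch3 and Jag2 were both positive in 9 cells, whereas multiplying their shares within each plate gives 33.8 cells, and the count was below that product on all 5 plates. Within Krt79-positive cells the numbers were 4 and 10.9, again below on all 5 plates. Notch3 and Dll1 shared 6 cells, against a product of 16.2, and Notch3 and Jag1 26 cells, against 24.5. Notch3 and Hes1 shared 28 cells, against 14.8, and Notch2 and Notch3 43 cells, against 28.1. Within classes these excesses were mostly smaller. For Notch3 and Hes1 they were 20 against 16.3 in Krt79-positive cells and 8 against 6.32 in cells with neither marker. For Notch2 and Notch3 they were 26 against 22.6 and 16 against 10.5. Jag2 and Dll1 shared 89 cells, against 72.6, above the product on 5 plates. Among the Cd34-negative cells of dKO plates 1 and 2, Notch3-positive cells averaged 3.40 and 2.52 TPM of Jag2 and Notch3-negative cells 24.3 and 25.2 TPM. On cKO plates 1 and 3 the Notch3-positive cells averaged 14.6 and 2.62 TPM and the Notch3-negative cells 36.3 and 42.3 TPM. On cKO plate 2 only 1 of these cells was Notch3-positive. Depth per cell was not held fixed in these counts.

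**Figure D4:**
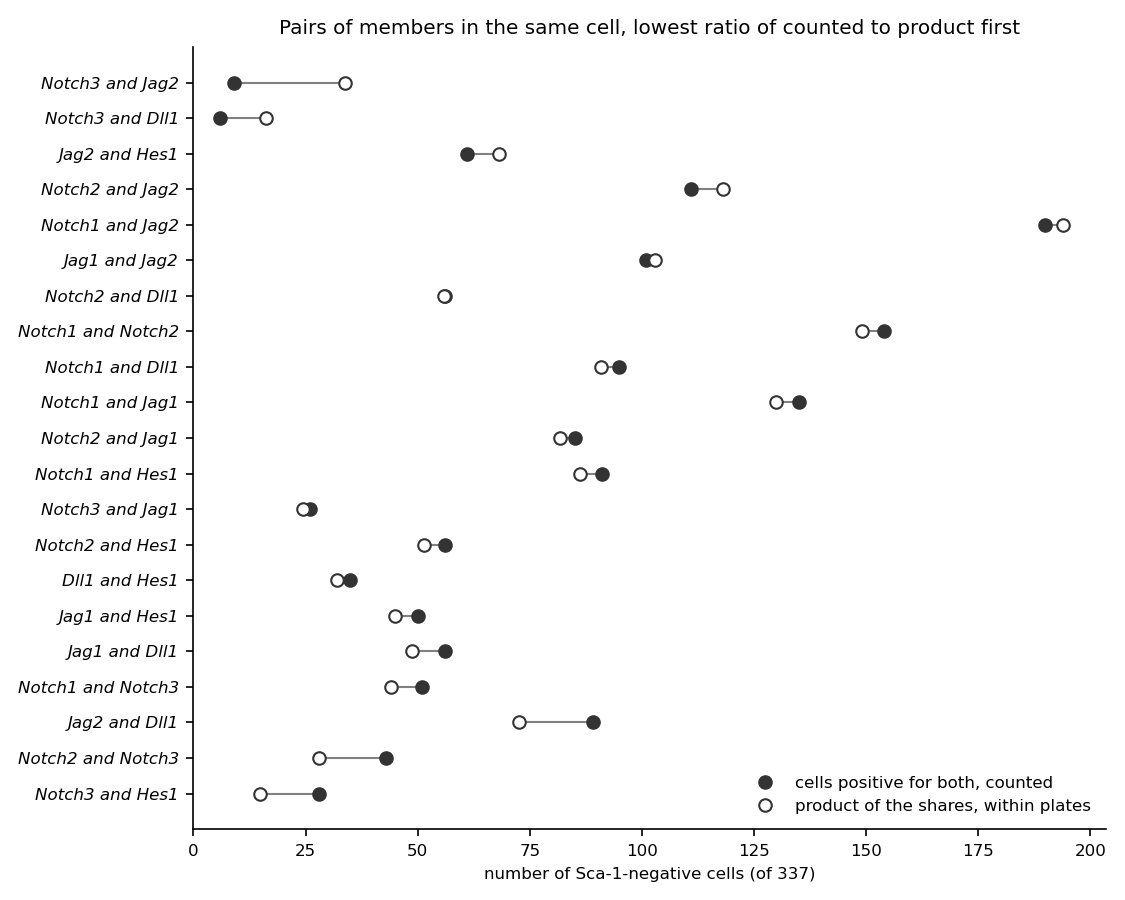
Number of Sca-1-negative cells, of 337, positive for both genes of each pair of members (filled points) and the number given by multiplying the 2 shares within each plate and adding over plates (open points), ordered by their ratio. Notch3 with Jag2 (9 and 33.8) and Notch3 with Dll1 (6 and 16.2) lie farthest below their products, and Notch3 with Hes1 (28 and 14.8) farthest above. Cells of all Cd34 and Krt79 classes are pooled in these counts.

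Between genotypes, in the Sca-1-negative gate, Jag2 was lower on both dKO plates than on all cKO plates, Notch1 was lower by a smaller factor, and Hes1 was lower in mean level. Jag2 averaged 20.3 and 20.4 TPM on dKO plates 1 and 2, against 28.6, 37.8 and 32.0 TPM on cKO plates 1 to 3. The plates did not overlap and the log2 ratio was -0.66 (20.4 and 32.8 TPM). The median of all measured genes was -0.12, and 7.80% of measured genes had a lower ratio. Ribosomal Rn18s took 61.5% and 56.0% of TPM on the dKO plates and 55.3% to 56.8% on the cKO plates. Jag2 was the 1 member of 6 measured past the rule for genotype, a ratio of at least 1.5 with no overlap between plates on both scales; of 7060 genes measured, 3.95% were lower and 1.77% higher. The ratio was -0.68 within the Xist plates and -0.62 within the Y plates, where each genotype is 1 plate. Without cKO plate 2 it was -0.55, with plate size factors -0.56 and after removal of the spike-in rows and the 5 most abundant rows -0.54, and none of these passed.

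Notch1 averaged 46.2 and 44.2 TPM on the dKO plates, against 63.2, 67.6 and 57.7 TPM on the cKO plates, a log2 ratio of -0.47 that missed the required factor although the plates did not overlap. Hes1 averaged 13.2 and 4.03 TPM on the dKO plates, against 26.5, 31.7 and 18.2 TPM on the cKO plates (log2 ratio -1.47). The plates stood apart in mean TPM but overlapped in mean log2(TPM + 1), and the positive cells were 35.5% and 13.1% on the dKO plates, against 35.2%, 36.2% and 26.2% on the cKO plates. The highest cell held 140.6 and 54.28 TPM of Hes1 on the dKO plates, against 333.4, 231.2 and 332.4 TPM on the cKO plates. The part of these single cells in the plate means was not tested apart. Without dKO plate 1, or without cKO plate 3, Hes1 passed. The log2 ratio of Hes1 was -1.09 within the Xist plates and -1.94 within the Y plates. The immediate early genes summed to 2290 and 832 TPM on the dKO plates, against 2810, 3920 and 1460 TPM on the cKO plates, and their part was not tested. The remaining members had log2 ratios of 0.25 (Notch2), 0.20 (Notch3), 0.19 (Jag1), -0.40 (Dll1) and -0.52 (Hey1, at 0 on cKO plate 3).

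The genotype difference of Jag2 was widest in Krt79-positive cells and that of Notch1 in cells with neither marker. Among cells with Krt79 alone, Jag2 averaged 5.11 and 10.1 TPM on the dKO plates, against 27.9, 31.3 and 25.4 TPM on the cKO plates (log2 ratio -1.76), and 5 of 28 dKO cells were Jag2-positive (17.9%, 6.06% to 36.9%), against 20 of 35 cKO cells (57.1%, 39.4% to 73.7%). Jag2 passed as lower there, where 7.33% of 6685 genes were lower and 2.96% higher. Krt79 itself differed: the median over these cells was 269 TPM in dKO and 50.9 TPM in cKO, and 71.4% of dKO cells and 51.4% of cKO cells held 50 TPM or more.

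Among cells at 50 TPM or more of Krt79, Jag2 averaged 3.56 and 7.61 TPM on the dKO plates, against 20, 0 and 11.7 TPM on the cKO plates, so the plates overlapped (log2 ratio -0.81) and Jag2 did not pass; the 0 is the 1 cell of cKO plate 2. The part of the Krt79 level in the Jag2 difference was not tested. Notch3 stood at 23.7 TPM in dKO and 23.6 TPM in cKO in that range. Between 10 and 50 TPM of Krt79, 3 of 8 dKO cells and 14 of 17 cKO cells were Jag2-positive (37.5%, 8.52% to 75.5%, and 82.4%, 56.6% to 96.2%). At 50 TPM or more, Hes1 averaged 14.3 and 7.58 TPM on the dKO plates, against 38.0, 113 and 58.7 TPM on the cKO plates, where 113 TPM is 1 cell (log2 ratio -2.57). Hes1 was the 1 member past the rule there, where 4.47% of 6170 genes were lower and 4.89% higher. The shares of Hes1-positive cells were 50% (27.2% to 72.8%) in dKO and 66.7% (41.0% to 86.7%) in cKO. These intervals cover counting error over pooled cells only.

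In cells with neither marker, Notch1 averaged 45.4 and 34.4 TPM on the dKO plates, against 74.5, 80.0 and 57.0 TPM on the cKO plates (log2 ratio -0.80), without overlap. It was the 1 member past the rule in this class, where 5.21% of 6950 genes were lower and 3.68% higher. Jag2 averaged 23.6 and 25.2 TPM on the dKO plates, against 32.8, 47.3 and 33.2 TPM on the cKO plates there (log2 ratio -0.61). In Cd34-positive cells no member passed, where 5.25% of 7178 genes were lower and 4.33% higher; Jag2 averaged 21.9 TPM in dKO and 26.5 TPM in cKO, and Notch1 25.0 and 40.8 TPM. In Krt79-positive cells Notch1 averaged 82.0 TPM in dKO and 72.3 TPM in cKO. Whether the genotype differences of the classes differ from each other was not tested.

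**Figure D5:**
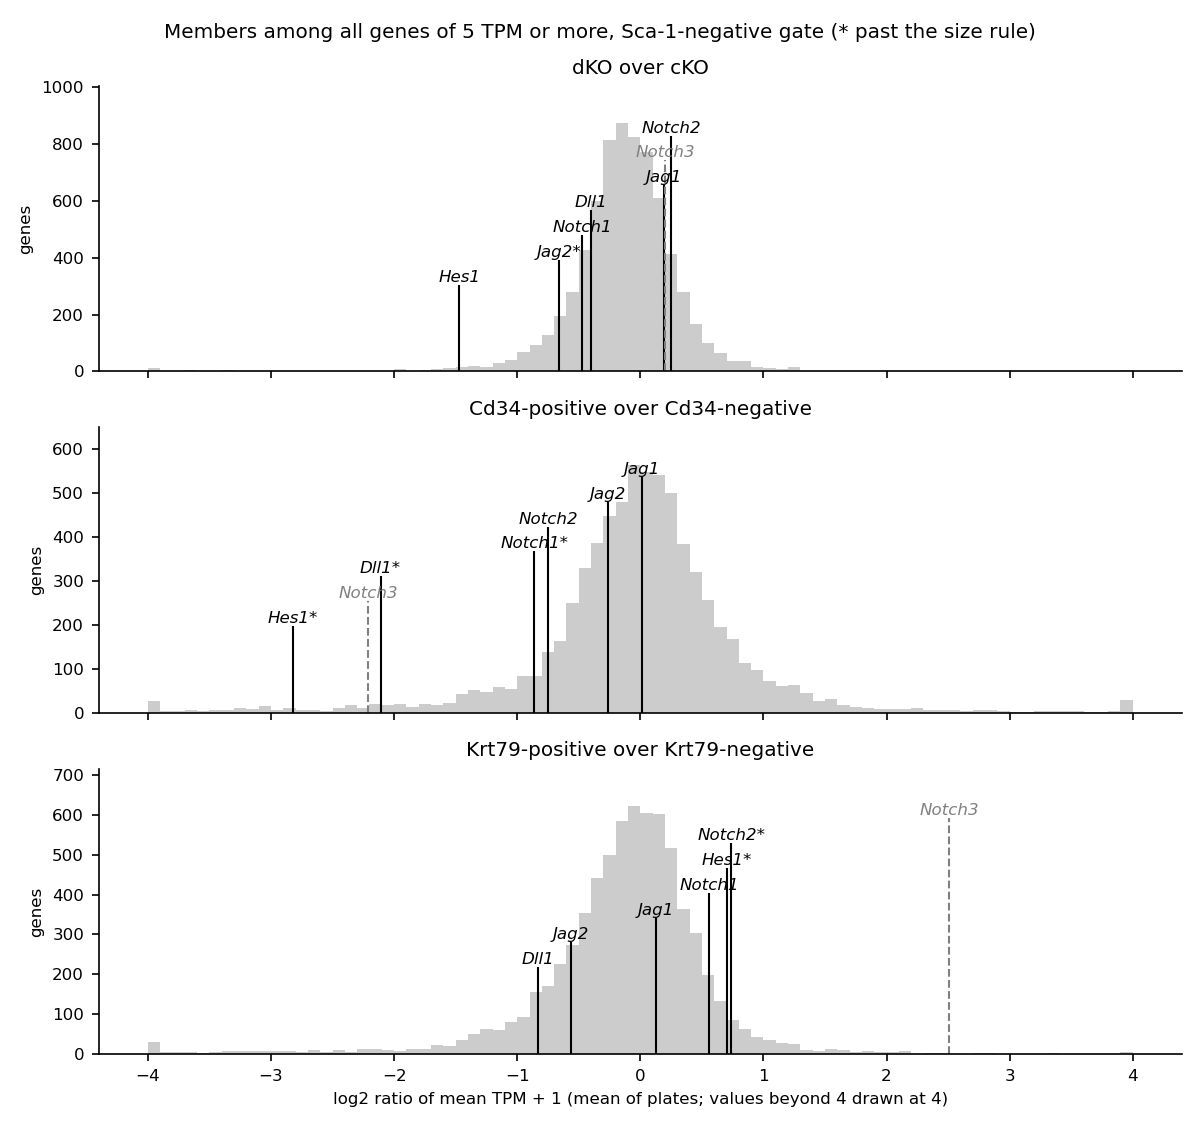
Number of genes (vertical axis) by log2 ratio of mean TPM plus 1 (horizontal axis) for all genes of at least 5 TPM in 3 comparisons of the Sca-1-negative gate, with 7 members marked by lines; dashed grey marks Notch3, which lies under the filter, and an asterisk marks a member past the size rule. Hes1 has a ratio of -1.47 between genotypes and -2.82 by Cd34 status, and Notch3 lies at 2.51 by Krt79 status.

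Between the Sca-1 gates, Hes1 was higher and Notch2 lower in Sca-1-positive cells of dKO, Dll1 passed as higher there only with its highest cell included, and no member passed in cKO. Here 1 plate of each genotype holds both gates, and the rule was a ratio of at least 2 and a mean log2(TPM + 1) that differed by 1 or more. In dKO plate 2, Dll1 averaged 40.6 TPM in 19 Sca-1-positive and 18.2 TPM in 61 Sca-1-negative cells (log2 ratio 1.11), Hes1 35.8 and 4.03 TPM (2.87), and Notch2 9.02 and 22.9 TPM (-1.25). By this rule 4.29% of 6534 genes were higher and 10.4% lower, with a median log2 ratio of -0.30. In cKO plate 3 the same genes averaged 32.0 TPM in 22 Sca-1-positive and 18.4 TPM in 65 Sca-1-negative cells for Dll1, 6.45 and 18.2 TPM for Hes1, and 14.4 and 19.9 TPM for Notch2. Of 6639 genes 3.0% were higher and 5.8% lower, with a median of -0.15. Single cells carried part of these means. Without the highest Sca-1-positive cell of each gene, a comparison added after the data were seen, Dll1 averaged 30 TPM in dKO (log2 ratio 0.69, no longer past the rule) and 15.0 TPM in cKO, where the log2 ratio was -0.28 in place of 0.77. Hes1 then averaged 16.7 TPM in dKO (1.81) and 4.1 TPM in cKO (-1.92), and Notch2 5.92 TPM in dKO (-1.79); both kept their dKO calls. Jag1 passed as lower in cKO (-1.23).

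Hes1 in the Sca-1-positive gate rests on few cells: 7 of 19 dKO cells (36.8%, 16.3% to 61.6%) and 3 of 22 cKO cells (13.6%, 2.91% to 34.9%) were positive. The immediate early genes summed there to 3960 TPM in dKO and 2390 TPM in cKO, against 832 TPM (dKO) and 1460 TPM (cKO) in the Sca-1-negative cells of these plates. Notch1 averaged 45.9 TPM in Sca-1-positive dKO cells and 36.1 TPM in Sca-1-positive cKO cells, but 28.0 and 32.1 TPM without the highest cell of each, so the order is not fixed. In these gates Jag2 averaged 29.0 and 30.3 TPM, Jag1 11.2 and 7.32 TPM and Notch3 2.07 and 3.71 TPM, and Hey1 was listed at 0 in all 41 cells.

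The rest of the pathway was read from 57 further genes. By level, leading genes of each role were Lfng (45.5 TPM as the mean of plates), a fringe enzyme that changes which ligands Notch responds to, and Poglut1 (10.1), which adds glucose to receptors; the γ-secretase subunits Aph1a (40.4) and Ncstn (25.3); the ubiquitin ligases Dtx2 (32.3) and Neurl1b (23.1), of which Neurl1b belongs to the Neuralized family that acts on ligands; and, among the nuclear factors named here, Hdac1 (24.3), a histone deacetylase. Nrarp (11.1) and Hes6 (3.93) led the other target genes, and Dlk2 (5.57) and Notch4 (0.275) the other receptors and ligands. Dll4, Hes2, Hes3, Hes5 and Hey2 were listed at 0.

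Of the 57, 30 were measured in the genotype comparison. Rbpj, which encodes the DNA-binding partner of the receptors, was lower in dKO, with 11.5 and 12.7 TPM on the dKO plates, against 23.4, 27.4 and 17.9 TPM on the cKO plates (log2 ratio -0.87; -1.08 within the Xist plates and -0.46 within the Y plates). Rfng, a fringe enzyme, averaged 8.37 TPM in dKO and 4.49 TPM in cKO, and Maml2, a Mastermind coactivator, 8.85 and 5.19 TPM, and both were past the rule as higher. By the rule 1 of the 30 was lower and 2 were higher, against 3.95% and 1.77% of all 7060 genes measured. The median log2 ratio of the 30 was -0.07, close to that of all genes (-0.12).

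By Cd34 status 3 of the 30 were higher and 4 lower, against 5.94% and 8.17% of all measured genes. Nrarp averaged 3.06 TPM in Cd34-positive and 14.0 TPM in Cd34-negative cells, Neurl1b 6.08 and 29.6 TPM and Dtx2 17.7 and 37.7 TPM. Dtx3, a Deltex family gene, averaged 22.1 and 8.13 TPM, Maml2 11 and 5.06 TPM, and Pofut1, which adds fucose to receptors, 9.33 and 5.45 TPM. By Krt79 status 2 were higher and 2 lower, against 3.05% and 4.86% of all measured genes: Nrarp averaged 25.7 TPM in Krt79-positive and 6.05 TPM in Krt79-negative cells, Neurl1b 42.5 and 18.5 TPM, Dtx3 7.18 and 13.4 TPM and Maml2 1.89 and 7.94 TPM. Both comparisons share cells, since most Krt79-positive cells count as Cd34-negative and the reverse.

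Between the gates, Tle1, a Groucho corepressor, was lower in Sca-1-positive cells of both genotypes, at 0.221 and 15.4 TPM in dKO and 0.199 and 15.3 TPM in cKO. It was the 1 gene of 27 measured past the rule in cKO, where 5.8% of all measured genes were lower and 3.0% higher. In dKO 2 of 32 were higher and 6 lower, where 4.29% of all measured genes were higher and 10.4% lower: Dlk2 (12.3 TPM in the Sca-1-positive and 4.44 TPM in the Sca-1-negative gate) and Fbxw7 (10.7 and 2.86 TPM), which marks the Notch intracellular domain for degradation, were higher, of which Dlk2 no longer passed without its highest cell (log2 ratio 0.85). Besides Tle1, the Notch antagonist Numb (7.92 and 17.2 TPM), the ubiquitin ligase Itch (4.32 and 17.0 TPM), Dtx3 (0.854 and 12.3 TPM), Maml2 (2.82 and 11.2 TPM) and Snw1 (4.17 and 12.3 TPM), a nuclear cofactor, were lower.

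Across 16 classes of plate, gate and marker status with at least 8 cells, the gene whose pattern was closest to that of Notch3 reached a higher correlation than for any other member. Likeness was Pearson's correlation of class means of log2(TPM + 1) among 6286 genes. The classes share plates and depth, so it is a description. They are also cut by Cd34 and Krt79, so a correlation with Krt79 partly restates the comparison by Krt79 status. Notch3 was most like Ly6g6c (0.98), Zfp750 (0.98), a transcription factor of epidermal differentiation, and Sdr16c6 (0.97), and its correlation was 0.95 with Krt79 and -0.86 with Jag2. Jag2 was most like Plec, the hemidesmosome linker plectin, Cdh13 and Ptrf (each 0.89). Hes1 was most like Cdkn1a (0.94), the cell cycle inhibitor p21, Erbb3 (0.90) and Dtx2 (0.89). Dll1 was most like Smoc2 (0.91), Card10 (0.90) and Gltscr2 (0.89), and Notch1 like Ppp1r13l (0.89), Zbtb7c (0.88) and H2-Q5 (0.87). Notch2 was most like Stard5 (0.91), Shroom3 (0.89) and Mcf2l (0.87), and Jag1 like Tmem209 (0.89), Ptpn9 and Fam120a (each 0.82). Hey1, with 3 positive cells, was most like S100pbp (0.88), Dcun1d4 (0.80) and Mir3081 (0.79).

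On the genome (GRCm38), Notch3 spans bases 32120820 to 32166852 and Dll1 bases 15367354 to 15376872 of chromosome 17, both on the minus strand. Jag2 spans bases 112907819 to 112929776 of chromosome 12 (minus), Notch1 bases 26457903 to 26516663 of chromosome 2 (minus), Jag1 bases 137081456 to 137116644 of chromosome 2 (minus), Notch2 bases 98013527 to 98150361 of chromosome 3 (plus), Hes1 bases 30064384 to 30067796 of chromosome 16 (plus) and Hey1 bases 8663359 to 8667256 of chromosome 3 (minus). Reads are not assigned to a strand by this protocol. Exons of Notch1, Notch3 and Dll1 overlap exons of antisense genes that the table lists at low level: 0610009E02Rik (1.66 TPM) and Gm13568 (3.86 TPM) at Notch1, Gm17276 (0.114 TPM) at Notch3 and A930024N18Rik (1.09 TPM) at Dll1.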

How the data were processed

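The deposited table holds TPM, a length-scaled abundance with a fixed total per cell, for 384 single cells and 46609 rows, of which 92 are spike-in (ERCC) rows. Per the submitters' processing notes, the authors used Bowtie2 2.2.9 and RSEM 1.2.30 with the mouse build mm10 (GRCm38). Column totals are 1000000, so the TPM values carry no depth, and no interval for a level could be derived from counts. Cells were assigned to plates, genotypes and gates from the labels. The 6 cells with fewer than 1000 genes at 1 TPM or more were left out, and 378 were kept; no 2 columns were identical, and the highest correlation between 2 cells was 0.55. Doublets were not called.

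Mean TPM per plate was computed with Python 3.11.15, numpy 2.4.6, pandas 2.3.3 and scipy 1.17.1, and figures were drawn with matplotlib 3.10.9. Ratios used a pseudocount of 1 TPM. A gene was measured at 5 TPM or more as the mean of the plates compared. Because the labels name no animal, each genotype was treated as 1 sample for testing: differences were read by size rules on all measured genes, with no p-values; the code was tested on simulated data. The study's own comparison of genotype and gate was kept, and Cd34 and Krt79 status at 10 TPM or more was added. Exact Clopper-Pearson 95% intervals were given for shares, and a count of 0 was read as allowing 3 cells.

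The text names all 8 members, the other pathway genes past a size rule, the 2 most abundant genes of each role list and the 3 genes most like each member, leaving out predicted, spike-in, mitochondrial and ribosomal protein genes. The values of 1 pathway gene that this rule names are not reported here. Dll4, Hes2, Hes3, Hes5, Hey2, the antisense genes and the marker genes fall outside that rule and were chosen after their values were seen. The members and lists were chosen with earlier results of these data known. Promoter windows came from RefSeq (GRCm38.p6) and matched 6 of the 8 members by symbol; positions came from GENCODE M21.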

Additional observations from a re-analysis of the deposited data

Results flagged for a closer look

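The Dll1 difference by Krt79 status was flagged because 1 plate stood apart from the other 4. The log2 ratio of Krt79-positive over Krt79-negative cells was -1.87 on dKO plate 2, against -0.85 on dKO plate 1 and -0.51, -0.66 and -0.58 on cKO plates 1 to 3. All 5 plates had the same direction. Chance flags about 1 in 20 groups, and 14 groups of 5 plates were examined.

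The Hes1 difference between the Sca-1 gates was flagged because it ran in opposite directions in the genotypes. The log2 ratio of Sca-1-positive over Sca-1-negative cells was 2.87 on dKO plate 2 and -1.37 on cKO plate 3, a difference of 4.24. In dKO the highest of the 19 Sca-1-positive cells held 380.0 TPM. Without the highest Sca-1-positive cell of each plate, and with all Sca-1-negative cells kept, the log2 ratios were 1.81 and -1.92. Each genotype has 1 plate with both gates, and the difference was not tested.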

How the results depend on the processing

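TPM without counts or molecular identifiers leaves depth unknown, and the labels name no animals, so all calls rest on size. No paired analysis was possible because plate numbers mark no animal shared between genotypes and no result comes from a test; Cd34, Krt79 and gate values were compared within each plate. Of the log2 ratios of members recomputed under other settings, 175 of 200 moved by less than the SD between plates for genotype, 136 of 144 for Cd34, 133 of 144 for Krt79, 61 of 72 for the gates in cKO and 62 of 72 in dKO, and none of those called changed sign.

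Between genotypes 1 member (Jag2) passed. The number was 0 with a pseudocount of 10 TPM, a required ratio of 2, size factors, the spike-in and 5 most abundant rows removed, the 254 cells positive for cycle genes or other cell types left out, or Cd34-positive cells alone. It was 2 by mean log2(TPM + 1) (Notch1 and Jag2) and 2 on the Xist plates or the Y plates alone (Jag2 and Hes1), and 0 to 2 when each plate was left out. By Cd34 status 3 passed; 1 did at 1 TPM, 5 on the Y plates alone, and 3 to 5 with a plate left out. By Krt79 status 2 passed; 0 did with a pseudocount of 10 TPM or genes of 20 TPM or more, 4 with positive set at 50 TPM, 1 among cells of 4000 to 6000 genes, 1 on the Xist plates, 6 on the Y plates, and 1 to 5 with a plate left out. Between gates, 0 passed in cKO, but 1 against Sca-1-negative cells of all plates, 1 without the highest 5% of cells, 1 without the highest Sca-1-positive cell of each gene (Jag1) and 2 by mean TPM alone; 3 passed in dKO, but 1 with a pseudocount of 10 TPM and 1 among genes of 20 TPM or more. The cause was not tested.

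Over all genes, the counts past the rule were 404 for genotype (98 to 1664 across settings), 996 for Cd34 (377 to 2062), 558 for Krt79 (193 to 1745), 584 for the gates in cKO (167 to 1310) and 960 in dKO (292 to 1750), lowest with genes of 20 TPM or more. The highest counts for genotype, Cd34 and Krt79 (1664, 2062 and 1745) were those of the Y plates alone, where more genes of any kind passed. Classes taken alone or weighted equally, the Xist and Y plates for Cd34 and Krt79 status, Krt79 at 50 TPM or more between genotypes, and leaving out the highest Sca-1-positive cell were chosen after seeing the data.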

Other observations

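Lfng, the fringe enzyme, was positive in 47 of 89 cells with Cd34 alone (52.8%, 41.9% to 63.5%), 16 of 63 with Krt79 alone (25.4%, 15.3% to 37.9%) and 106 of 183 with neither (57.9%, 50.4% to 65.2%). In the cells with Krt79 alone, 3 of 28 dKO cells (10.7%, 2.27% to 28.2%) and 13 of 35 cKO cells (37.1%, 21.5% to 55.1%) were positive. Lfng averaged 3.26 and 9.64 TPM in these cells on dKO plates 1 and 2, against 13.1, 62.0 and 35.4 TPM on cKO plates 1 to 3. The median Krt79 level of these cells was 269 TPM in dKO and 50.9 TPM in cKO, and its part in the Lfng values was not tested. Lfng was chosen after its values were seen.

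All 3 receptors were positive together in 43 of the Sca-1-negative cells and all 3 ligands in 46. In the Sca-1-positive gate the numbers were 0 and 4 of 41 cells. Singly, 75.6% of these 41 cells were positive for Notch1, 39.0% for Notch2 and 9.76% for Notch3. These shares alone give few cells with all 3 receptors.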
